A study of Gallus gallus with 12 samples.

Results

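A set of 10 genes of BMP and activin signaling was followed through the developing chick retina, in single cells of the whole retina at 2 embryonic stages and in retinal ganglion cells (RGCs) of its dorsal and ventral parts. They were taken by name: INHBA, INHBB, BMP2, BMP4, BMP7, BMPR1B, BAMBI, CHRDL1, SMOC1 and FSTL4. All 10 of 10 were found among the 23726 genes of the count tables. The whole retina was sampled at E12 (4 libraries) and at E18 (4 libraries), and E16 retina enriched for RGCs through the surface protein Thy-1 was sampled from its dorsal part (2 libraries) and its ventral part (2 libraries). All embryos came from specific pathogen free eggs, were untreated and carried no stated genetic change, and the pigment epithelium and the pecten were removed before papain dissociation. The free-text description of the 4 RGC-enriched libraries names E18, whereas their titles and stage field give E16, which is used here. The labels do not state that each library had its own embryos, so p-values measure the spread between libraries, which may be technical.

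BMPs and activins are secreted dimers of the TGF-beta family. They bind pairs of type I and type II serine/threonine kinase receptors on the receiving cell, which then phosphorylate SMAD proteins: SMAD1, SMAD5 and SMAD9 after BMPs, SMAD2 and SMAD3 after activins. Secreted antagonists of the chordin and follistatin type, and decoy receptors without a kinase, limit how much ligand is sensed. In the early chick eye BMP4 is made dorsally and CHRDL1 (known in chick as ventroptin) ventrally, and their balance takes part in the patterning that guides RGC axons.

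The libraries were droplet-based 3′ libraries counted by unique molecular identifiers (UMIs), short tags that let copies of 1 captured molecule be counted once. The E12 libraries held 25226502 to 27655687 UMIs, the E18 libraries 16436527 to 16967777, the dorsal E16 libraries 1737033 and 2886101 and the ventral E16 libraries 15237958 and 13829514. Of 95805 barcodes, 8427 probable doublets were left out and 75447 of the remaining 87378 cells fell in a class used here. Classes were named from marker genes after clustering without the 10 genes, and "X-like" means that name. Levels are in CPM, the usual depth-scaled unit (UMIs of the gene over all UMIs of the class in that library, scaled to a fixed total), given as mean ± SD over libraries. Cells with at least 3 UMIs of HINTW, a gene of the female W chromosome, made up 17.5% to 20.2% of E12 cells of at least 2000 UMIs, 57.9% and 59.8% of such dorsal E16 cells, 43.6% and 42.9% of ventral E16 cells, and 0% at E18. The groups thus differed in this gene, and each comparison was repeated in cells with no HINTW UMI.

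The classes that carried the genes differed, and some genes shared one. INHBA, which encodes the activin A subunit, was found almost wholly in Müller glia-like cells, which gave 89.1% ± 2.9 of its UMIs at E12 from 3.63% of the cells and 96.1% ± 0.46 at E18 from 12.4% of the cells. INHBB, which encodes the activin B subunit, was led at E12 by a photoreceptor-like class of 0.99% of the cells that gave 44.3% ± 3.9 of its UMIs. BMPR1B, BAMBI and CHRDL1 were mostly glial at E18, where Müller glia-like cells gave 78.7% ± 4.0, 70.3% ± 0.86 and 78.9% ± 1.5 of their UMIs. Amacrine-like cells, 46.3% of the E12 cells and 22.8% of the E18 cells, gave 52.9% ± 8.3 of the BMP4 UMIs at E12, close to their share of cells, and 78.5% ± 6.1 at E18. An unnamed E12 cluster outside that class, led by NHLH1 and NFIX, held a further 25.15% of the E12 BMP4 UMIs. Amacrine-like cells gave 58.2% ± 0.86 and 60.5% ± 2.5 of the FSTL4 UMIs. The largest share of BMP2 at E18 came from horizontal cell-like cells, which gave 43.0% ± 2.7 of its UMIs from 6.72% of the cells, followed by amacrine-like cells with 19.0% ± 3.0. BMP7 was spread over several classes: bipolar-like cells, 36.3% of the E18 cells, gave 36.2% ± 3.9 of its E18 UMIs.

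**Figure D1:**
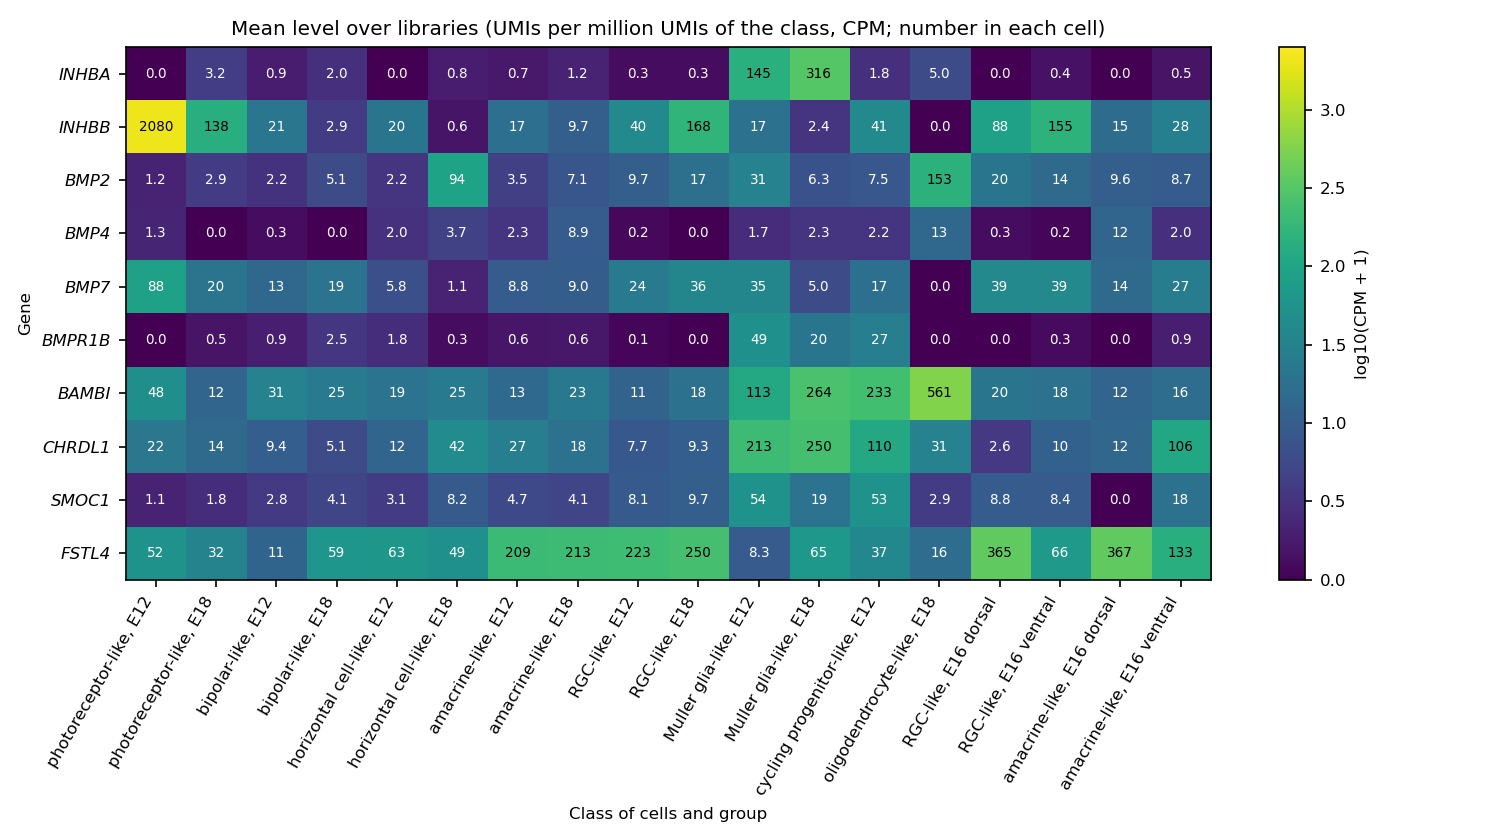
Mean level of each gene (rows) in each class and group (columns), in CPM, as the number in each cell and as colour on a log10(CPM + 1) scale, over 4 libraries per stage or 2 per E16 region. INHBA stands out in the Müller glia-like columns alone, INHBB in the E12 photoreceptor-like column, and FSTL4 in the amacrine-like and RGC-like columns.

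The first comparison asked which genes differed between E12 and E18 within a class. A gene was called where edgeR's quasi-likelihood test gave a Benjamini-Hochberg adjusted p under 0.05 over all genes tested and at least a 2-fold difference. In Müller glia-like cells 9 of the 10 genes could be tested and 8 were called, 3 higher and 5 lower at E18, where 28.5% of all genes tested were called (17.2% higher and 11.3% lower). In photoreceptor-like cells all 5 that could be tested were called lower (27.2% of all genes called, 16.6% higher and 10.6% lower). In bipolar-like cells 1 rose and 1 fell of 6 tested (21.9% of all genes called, 13.8% higher and 8.1% lower), and in horizontal cell-like cells 2 rose of 4 tested (21.7%, of which 11.2% higher and 10.5% lower). In amacrine-like cells 1 rose of 8 tested (19.2%, with 12.2% higher and 7.04% lower), and in RGC-like cells 1 rose of 7 tested (18.6%, with 10.8% higher and 7.82% lower). The share called was thus near the background in the amacrine-like and RGC-like classes. The median log2 difference was −1.11 over the 9 genes in Müller glia-like cells and −2.45 over the 5 in photoreceptor-like cells, beside 0.01 and 0.09 over all genes tested. The filter on low counts, which set the genes that could be tested, lets a gene pass through 1 stage alone. A gene high at only 1 stage is thus kept, while one low at both is not. These counts and medians, and those of other pathway genes below, describe the genes that passed. The part of this selection in them was not tested. All 19 calls between the stages held in cells with no HINTW UMI. Scaling by total UMIs in place of TMM shifted the median of all genes by 0.44 in photoreceptor-like, −0.22 in Müller glia-like, 0.21 in amacrine-like, 0.17 in RGC-like and 0.12 in horizontal cell-like cells on the log2 scale.

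INHBA rose in Müller glia-like cells. Its level was 138, 143, 163 and 136 CPM in the 4 E12 libraries and 339, 312, 303 and 312 CPM in the 4 E18 libraries. Every E18 library lay above every E12 library, and the log2 difference was 1.35 ± 0.07 (SE; adjusted p = 1.23e-23). No other class reached more than 5.05 CPM on average at either stage. INHBA had 0 UMIs in the E12 photoreceptor-like and horizontal cell-like classes, which allows up to 3.71 and 1.14 CPM (3 counts over the group, counting error only). E18 Müller glia-like cells formed 2 clusters, which the clustering separated without use of these genes. In the larger (2405 cells, METRN among its leading genes) INHBA reached 402 ± 28.4 CPM, and in the smaller (1092 cells, led by PSCA and PRLH) 196 ± 20.6 CPM. Set against the single E12 cluster, the log2 difference was 1.66 in the larger and 0.70 in the smaller, where it was under 2-fold (adjusted p = 3.73e-10). It was 0.88 with barcodes of at least 1000 genes, also under 2-fold.

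INHBB rose in RGC-like cells and was lower on average at E18 in each of the other 5 classes found at both stages, with a call in 3 of them. In RGC-like cells it was at 42.4, 41.0, 38.7 and 38.1 CPM at E12 and at 168, 161, 159 and 186 CPM at E18. The libraries of the stages did not overlap, with a log2 difference of 1.91 ± 0.09 (adjusted p = 9.71e-22). The summed level of 12 RGC markers in the same cells was 4894 to 5013 CPM at E12 and 10610 to 11260 CPM at E18, and that of 12 amacrine markers 1265 to 1328 and 596 to 710 CPM. Their part in the INHBB difference was not tested.

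In photoreceptor-like cells INHBB was at 1991, 2351, 2038 and 1939 CPM at E12 and at 132, 165, 132 and 123 CPM at E18, a log2 difference of −4.34 ± 0.07 (adjusted p = 1.82e-64). These E12 cells were 1 cluster of 497 cells, whereas the E18 class held 4397 cells in 7 clusters. The E18 cluster most like the E12 cluster over all genes (285 cells, r = 0.955) carried INHBB at 1237, 1588, 1476 and 1331 CPM. Against that cluster alone, a comparison added after the data had been seen, the log2 difference was −0.83 ± 0.07 (adjusted p = 9.19e-22) and under 2-fold. The other 6 E18 photoreceptor-like clusters had at most 95.5 CPM. An unnamed E12 cluster led by RBP4 and EGFLAM (536 cells, NR2E3 among its leading genes) had 62.2 ± 26.0 CPM and was outside the class. The class difference thus cannot be told apart from a different mix of photoreceptor clusters at the 2 stages. Photoreceptor-like cells gave 44.3% of INHBB's UMIs at E12 and 48.0% ± 4.3 at E18.

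INHBB also fell in bipolar-like cells (20.6 ± 2.1 to 2.94 ± 1.2 CPM, log2 −2.88 ± 0.29) and in Müller glia-like cells (17.3 ± 4.3 to 2.39 ± 1.5 CPM, log2 −2.62 ± 0.35). Bipolar-like cells classed by their own markers gave −0.94, under 2-fold. In amacrine-like cells it was at 16.6 ± 1.2 CPM at E12 and 9.69 ± 2.5 CPM at E18, just under 2-fold (log2 −0.99 ± 0.13, adjusted p = 2.53e-06), and 6 alternatives called it lower, the largest at −1.13. In horizontal cell-like cells it was at 20.1 ± 10.1 and 0.56 ± 0.65 CPM and did not pass the filter on low counts. The E12 level was similar in 4 classes, 16.6 CPM in amacrine-like, 17.3 in Müller glia-like, 20.1 in horizontal cell-like and 20.6 in bipolar-like cells. The level over all cells of a library was 42.8 ± 3.2 CPM at E12 and 25.9 ± 1.6 CPM at E18. The part of free RNA in these low levels was not tested.

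BMP2, a BMP ligand, had the largest change of the 4 genes tested in horizontal cell-like cells, the interneurons that connect photoreceptors laterally. It was at 3.27, 1.51, 0 and 4.09 CPM in the E12 libraries (6 UMIs in 1727 cells) and at 87.9, 93.9, 83.4 and 111 CPM in the E18 libraries (330 UMIs in 1896 cells). All E18 libraries were far above all E12 libraries, with a log2 difference of 5.16 ± 0.31 (adjusted p = 2.82e-25), or 35.9-fold. Assigning each cell to a class by its own markers left 3.98. E12 horizontal cell-like cells were 1 cluster, with TNR, OXT and LHX1 leading. At E18 there were 2: the cluster led by HMX2 (821 cells) had 151 ± 19.2 CPM, and the one led by IPCEF1 and LHX1 (1075 cells) 57.6 ± 6.9 CPM. Both exceeded the E12 class when set against it alone (log2 5.79 and 4.46). The summed level of 8 horizontal cell markers was 4270 to 4568 CPM at E12 and 8771 to 9385 CPM at E18, that of amacrine markers 4376 to 5016 and 4030 to 4296 CPM, and that of 9 bipolar markers 1494 to 1681 and 512 to 809 CPM. Their part in the differences of this class was not tested.

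In Müller glia-like cells BMP2 fell. It was at 30.2, 29.6, 32.6 and 31.5 CPM at E12 and at 5.71, 7.26, 4.24 and 7.85 CPM at E18, without overlap (log2 −2.07 ± 0.23, adjusted p = 1.46e-11). At E12 this class stood above every other class, and RGC-like cells came next at 9.72 ± 1.9 CPM. At E18 the order was led by a small oligodendrocyte-like class (150 cells, 73.3, 117, 227 and 197 CPM) and the horizontal cell-like class, whose libraries overlapped with it. RGC-like cells followed at 16.97 ± 4.7 CPM. The RGC-like difference between stages was 0.64 on the log2 scale and under 2-fold.

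BMP4 was rare, with 171 UMIs over all E12 cells and 230 over all E18 cells. In amacrine-like cells, inhibitory interneurons of the inner retina, it was at 3.02, 1.73, 2.58 and 2.00 CPM at E12 and at 8.95, 7.23, 10.3 and 9.11 CPM at E18. The stages did not overlap, and BMP4 rose by 1.72 ± 0.19 on the log2 scale (adjusted p = 1.21e-07). The E18 signal was concentrated in a few of 24 amacrine-like clusters of at least 50 cells: 3 reached 20 CPM and the median cluster had 0 UMIs. The highest of these were the one led by SLC10A4 and ZAR1 (46.4 ± 9.9 CPM) and the one led by NTS and SS2 (42.3 ± 12.5 CPM). At E12 the highest level among clusters of that size was in an unnamed cluster led by NHLH1 and NFIX (32.9 ± 17.6 CPM). No BMP4 UMI was found in E18 photoreceptor-like, bipolar-like or RGC-like cells, which allows up to 0.54, 0.21 and 0.93 CPM.

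BMP7 was also lower at E18 in Müller glia-like and photoreceptor-like cells. In Müller glia-like cells it was at 41.5, 33.7, 32.6 and 32.9 CPM at E12 and at 4.70, 6.27, 5.29 and 3.92 CPM at E18, with no overlap (log2 −2.58 ± 0.23, adjusted p = 6.45e-15). In photoreceptor-like cells it was at 96.0, 70.6, 74.2 and 110 CPM at E12 and at 24.97, 14.2, 15.7 and 23.4 CPM at E18, again apart (log2 −2.58 ± 0.25). In the E18 cluster most like the E12 one BMP7 went the other way, unlike INHBB, with 197, 122, 165 and 159 CPM and a log2 difference of 0.60 ± 0.26 (adjusted p = 0.0545). The direction in photoreceptor-like cells therefore turned with the choice of cluster. At E18, 2 of 22 bipolar-like clusters carried BMP7 above 100 CPM: 211 ± 36.3 CPM in the one led by FEZF1 and NXPH1, and 158 ± 43.2 CPM in the one led by SLC6A4 and HTR1F. The median bipolar-like cluster had 1.29 CPM. In RGC-like cells BMP7 was at 23.6 ± 2.5 CPM at E12 and 35.9 ± 1.5 CPM at E18, under 2-fold (log2 0.44 ± 0.15), and it led the E18 classes there.

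BMPR1B, a type I BMP receptor, was found mainly in Müller glia-like and cycling progenitor-like cells. At E12 it was at 59.1, 45.8, 37.3 and 54.8 CPM in Müller glia-like cells and at 27.1 ± 4.1 CPM in cycling progenitor-like cells, and no other class averaged above 1.79 CPM. At E18 it was at 20.8, 17.5, 17.3 and 23.2 CPM in Müller glia-like cells, below every E12 library (log2 −1.11 ± 0.16, adjusted p = 3.43e-08). Among neurons the E18 bipolar-like class was highest at 2.45 ± 0.64 CPM, and E18 RGC-like cells had 0 UMIs. The fall differed between the 2 E18 Müller glia-like clusters: the larger kept 32.4 ± 5.4 CPM and the smaller had 1.82 CPM. Against the larger alone the log2 difference was −0.43 (adjusted p = 0.0178) and under 2-fold, and against the smaller alone −4.42. Barcodes of at least 1000 genes gave −0.70 and cells classed by their own markers −0.92, both under 2-fold.

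BAMBI, a transmembrane pseudoreceptor that lacks the kinase domain and dampens TGF-beta family signals, went the other way. In Müller glia-like cells it was at 114, 114, 128 and 95.8 CPM at E12 and at 245, 249, 286 and 276 CPM at E18. The stages did not overlap, and BAMBI rose by 1.45 ± 0.08 on the log2 scale (adjusted p = 1.50e-22). Both E18 clusters shared the rise (log2 1.19 in the larger and 1.75 in the smaller). At E12 the highest class was cycling progenitor-like (233 ± 21.1 CPM), and at E18 oligodendrocyte-like (471, 388, 634 and 751 CPM), each above Müller glia-like cells in every library. In photoreceptor-like cells BAMBI was lower at E18 (48.2 ± 12.1 to 11.7 ± 1.8 CPM, log2 −2.45 ± 0.33). In the E18 cluster most like the E12 one it was between 8.72 and 49.7 CPM and did not pass the filter on low counts.

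CHRDL1, a secreted chordin-like BMP antagonist, was abundant in Müller glia-like cells at both stages: 216, 203, 218 and 215 CPM at E12 and 245, 256, 253 and 247 CPM at E18. The libraries did not overlap (log2 0.45 ± 0.07, adjusted p = 2.43e-08), but the difference was under 2-fold. In horizontal cell-like cells it was at 13.1, 12.1, 9.42 and 12.3 CPM at E12 and at 38.0, 48.7, 50.3 and 31.7 CPM at E18, and so rose without overlap (log2 1.71 ± 0.26, adjusted p = 2.29e-08). This signal lay in the cluster led by IPCEF1 and LHX1 (66.6 CPM), while the cluster led by HMX2 had 3.67 CPM, the reverse of the order for BMP2. Cells classed by their own markers gave 0.56, under 2-fold. In photoreceptor-like cells CHRDL1 was called lower (log2 −1.09 ± 0.44, adjusted p = 0.0346), but without E12 replicate 2 the adjusted p was 0.505, and the call was also lost with scaling by total UMIs (−0.66) and without the filter on low counts (−0.96). In the E18 cluster most like the E12 one it was between 61.9 and 157 CPM, above the 14.3 to 39.7 CPM of the E12 libraries. Among clusters of at least 50 cells the highest E12 level was in an amacrine-like one led by PPP1R17 and EOMES (611 cells, 381 ± 70.4 CPM), 1 of 17 amacrine-like clusters and the only one above 100 CPM. That cluster also held the second highest E12 levels of INHBB (77.7 ± 12.7 CPM), BMP7 (38.3 ± 10.0 CPM) and SMOC1 (75.7 ± 6.9 CPM).

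SMOC1, a secreted matrix protein that inhibits BMP signaling in Xenopus, fell in Müller glia-like cells. It was at 47.7, 47.1, 60.6 and 61.6 CPM at E12 and at 18.5, 21.1, 14.1 and 21.3 CPM at E18, without overlap (log2 −1.30 ± 0.16, adjusted p = 4.93e-10). Here too the 2 E18 clusters parted: the larger had 32.0 ± 5.2 CPM and the smaller 0 UMIs. Against the larger alone the log2 difference was −0.56 (adjusted p = 0.00155), under 2-fold. Among clusters of at least 50 cells the highest E12 level was in the cycling progenitor-like cluster led by FABP7 and FGFBP3 (150 ± 14.7 CPM).

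FSTL4, a follistatin-like protein known in chick as SPIG1, rose in Müller glia-like cells from a low level. It was at 5.03, 8.08, 9.33 and 11.0 CPM at E12 and at 65.5, 64.0, 76.9 and 52.3 CPM at E18, far apart (log2 3.18 ± 0.22, adjusted p = 5.51e-19). Cells classed by their own markers gave 2.00. The smaller E18 cluster carried 104 CPM and the larger 36.2 CPM, and each was called against E12 (log2 3.90 and 2.31). In bipolar-like cells FSTL4 rose from 11.3 ± 3.15 to 59.2 ± 5.2 CPM (log2 2.30 ± 0.19), but cells classed by their own markers gave 0.37, finer clusters 1.24 and barcodes of at least 1000 genes 1.57. In photoreceptor-like cells it fell from 52.4 ± 10.9 to 32.1 ± 2.5 CPM (log2 −1.12 ± 0.27), and was under 2-fold with scaling by total UMIs (−0.68), without the filter (−0.99) or without E12 replicate 1 (−0.98). The main carriers were not called: 209 ± 6.9 and 213 ± 18.4 CPM in amacrine-like cells and 223 ± 9.3 and 250 ± 24.1 CPM in RGC-like cells at E12 and E18. Within amacrine-like cells FSTL4 varied widely, from 5.69 to 1349 CPM over the 24 E18 clusters with libraries pooled. The clusters led by FOXP4L and FOXP1 (1375 ± 272 CPM as a mean over libraries) and by VWA1 (1109 ± 279 CPM, likewise) were highest.

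**Figure D2:**
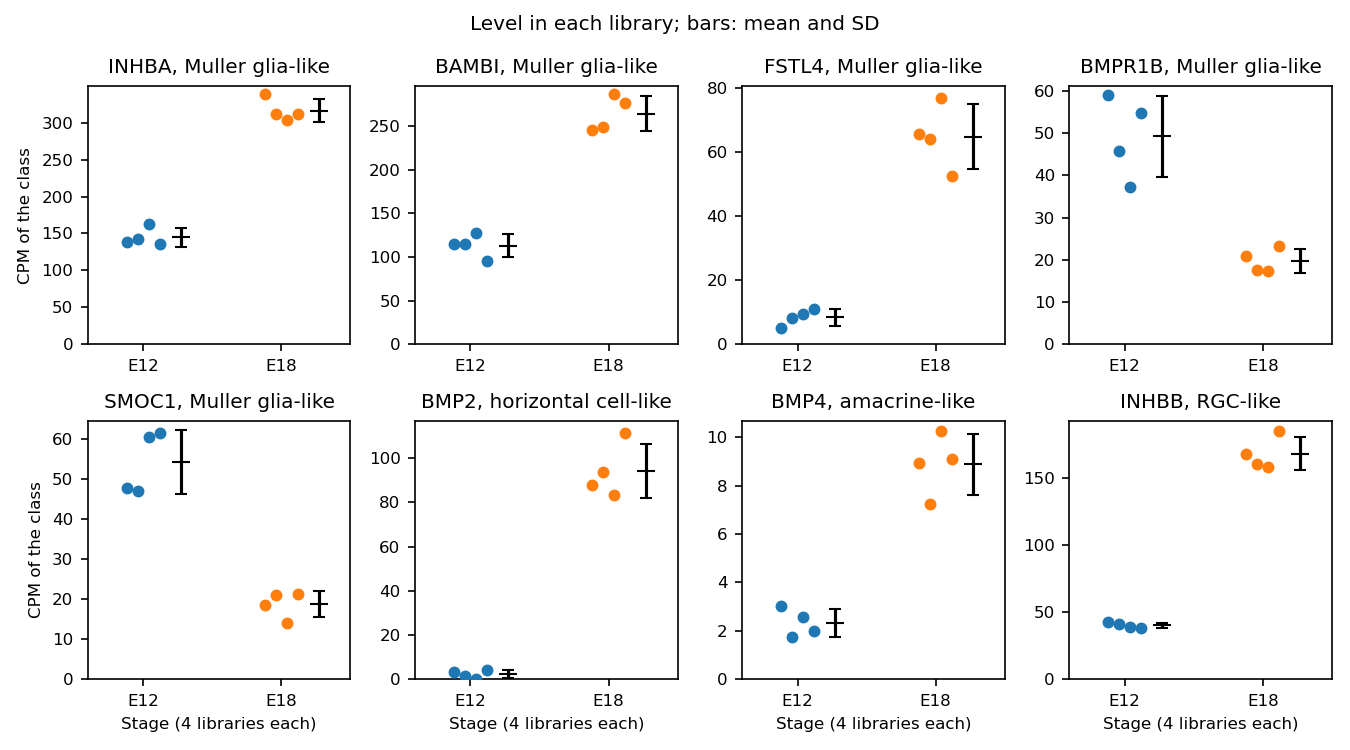
Level in CPM of 8 genes in the class named above each panel, one point per library (4 at E12, blue, and 4 at E18, orange), with bars for the mean and SD. INHBA, BAMBI and FSTL4 in Müller glia-like, BMP2 in horizontal cell-like, BMP4 in amacrine-like and INHBB in RGC-like cells were higher at E18 in every library, and BMPR1B and SMOC1 lower.

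**Figure D3:**
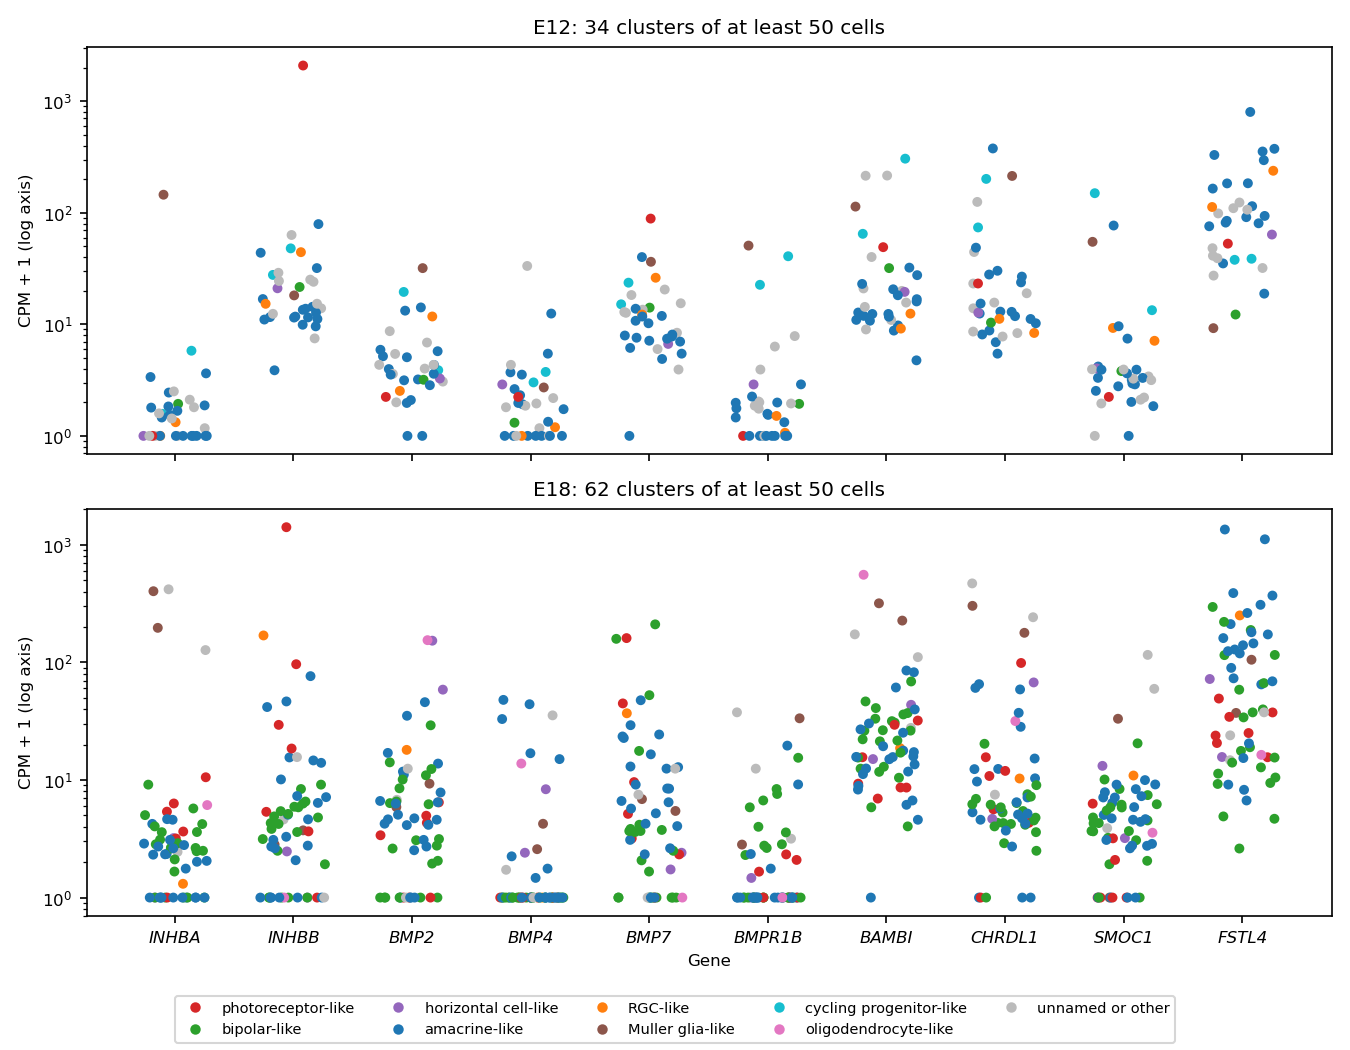
Level of each gene in every cluster of at least 50 cells at E12 (34 clusters, top) and E18 (62 clusters, bottom), as CPM + 1 on a log axis, libraries pooled, coloured by class. INHBA, INHBB, BMP2, BMP4 and BMPR1B have a few clusters far above the rest, while FSTL4 and BAMBI are spread over most clusters.

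The Müller glia-like classes of the 2 stages differed in more than these genes. The summed level of 12 Müller glia markers was 4863 to 5160 CPM at E12, where HEPACAM was at 0, and 27460 to 28220 CPM at E18. Of the other lists, 11 cycling progenitor markers summed to 261 to 290 CPM at E12 and 63.8 to 77.3 CPM at E18, where UBE2C and CENPF were at 0. The 7 oligodendrocyte markers summed to 264 to 346 CPM and 856 to 910 CPM. Larger sums at E12 came from 9 bipolar markers, with 1304 to 1457 CPM at E12 and 603 to 645 CPM at E18. Amacrine markers summed to 693 to 788 and 366 to 382 CPM, and horizontal cell markers to 437 to 478 and 286 to 314 CPM. Photoreceptor markers went the other way, from 37.0 to 49.0 CPM at E12 to 288 to 309 CPM at E18. In the E12 photoreceptor-like cluster 12 RGC markers summed to 1627 to 1981 CPM, beside 456 to 670 CPM in the E18 class. The part of these marker levels in the stage differences was not tested.

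Whether the stage difference itself varied between the 6 classes was tested in 1 model with the library as a block. Of 9 genes tested 8 passed at an adjusted p under 0.05, beside 79% of all genes tested. BMP2 (adjusted p = 9.24e-33) combined its rise in horizontal cell-like cells with its fall in Müller glia-like cells. INHBB (3.61e-86) combined its rise in RGC-like cells with lower mean levels in the other classes, under the limits given above. INHBA did not pass (adjusted p = 0.21). With such a background share the count of 8 says little about these genes.

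The second comparison set dorsal against ventral RGC-like cells at E16, with 2 libraries per side (2053 and 5793 cells) and a call at an adjusted p under 0.05. Of 7 genes tested FSTL4 was higher dorsally and INHBB and CHRDL1 lower, where 15.4% of all genes tested were called (7.7% higher and 7.65% lower). FSTL4 was at 367 and 363 CPM dorsally and at 66.7 and 66.3 CPM ventrally. The sides lay far apart, with a log2 difference of 2.45 ± 0.06 (adjusted p = 1.39e-24), and the value stayed between 2.40 and 2.48 in every alternative run. INHBB was at 93.4 and 83.3 CPM dorsally and 156 and 154 CPM ventrally, without overlap (log2 −0.83 ± 0.08, adjusted p = 2.05e-09). CHRDL1 was low, at 2.53 and 2.72 CPM dorsally (11 UMIs) and 9.56 and 11.0 CPM ventrally (258 UMIs), with a log2 difference of −1.95 ± 0.36 (adjusted p = 1.89e-04). It lost the call in cells with no HINTW UMI (log2 −1.49, adjusted p = 0.132). Without dorsal replicate 2, which left 1 dorsal library assumed to vary like the others, the difference was as large but not called (−2.01, adjusted p = 0.0559), and thinning each cell to 1500 UMIs gave −4.28.

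The other genes tested did not pass in RGC-like cells. BMP7 was at 37.9 and 39.7 CPM dorsally and 37.5 and 39.5 CPM ventrally, with a log2 difference of 0.01 ± 0.12. BMP2 was at 22.7 and 17.5 CPM dorsally and 13.0 and 15.4 CPM ventrally (log2 0.46 ± 0.19, adjusted p = 0.113). BAMBI (log2 0.20 ± 0.18) and SMOC1 (0.11 ± 0.26) did not pass either. BMP4, the dorsal ligand of the early eye, had 1 UMI in dorsal and 4 UMIs in ventral RGC-like cells, too few to compare. Dorsal cells were shallower, with a median of 1670 and 1872 UMIs per barcode beside 4161 and 4166 ventrally. Summed amacrine markers were alike in the RGC-like cells of both sides, 524 to 526 CPM dorsally and 524 to 539 CPM ventrally, and summed RGC markers were 7591 to 7900 and 6769 to 6829 CPM.

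**Figure D4:**
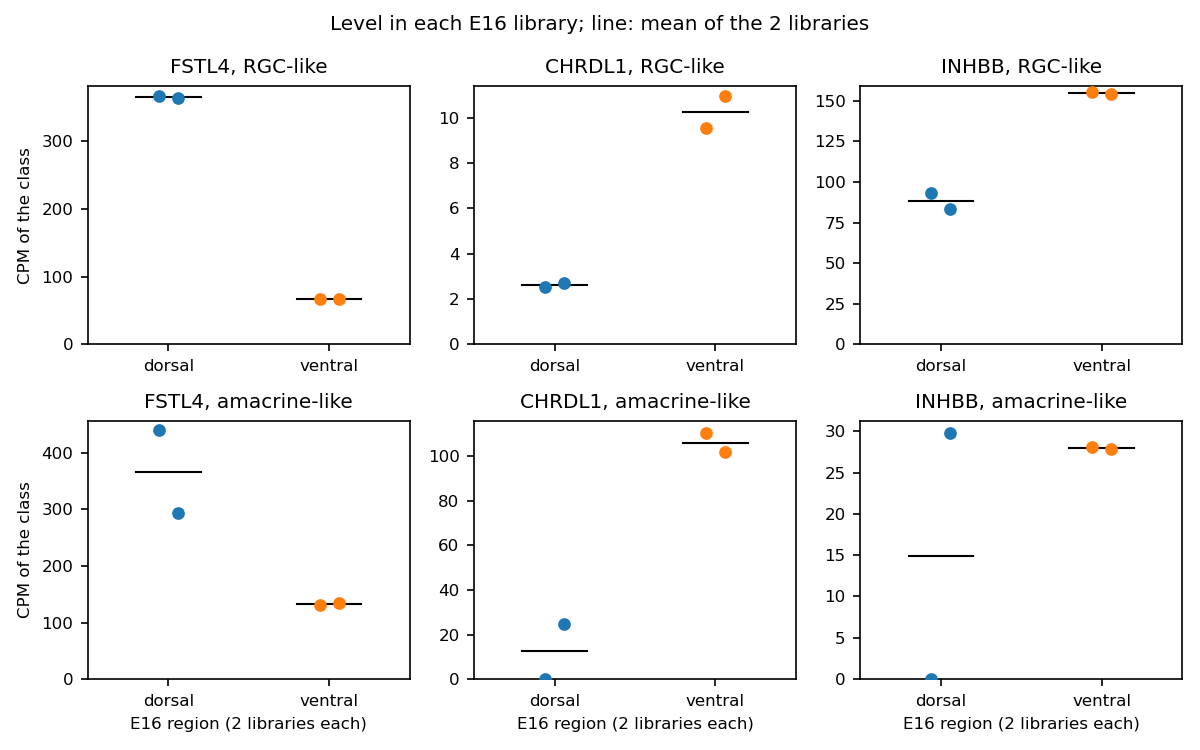
Level in CPM of FSTL4, CHRDL1 and INHBB in each E16 library, RGC-like cells on top and amacrine-like cells below, with 2 dorsal (blue) and 2 ventral (orange) libraries per panel and a line at their mean. FSTL4 was higher in both dorsal libraries and CHRDL1 in both ventral libraries of each class; INHBB was separated in RGC-like cells only.

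The FSTL4 difference was seen in every RGC-like cluster that could be compared. These clusters share the same 4 E16 libraries, and the part of free RNA in the difference was not tested. In each of the 30 RGC-like clusters, of 37, with at least 20 cells per side and 10 UMIs of the gene, the pooled level was higher dorsally. INHBB was higher ventrally in 17 of 25 such clusters and dorsally in 8; the minimum was on the UMIs of both sides together, and the ventral libraries were deeper. It was concentrated in a few types: 10 of 37 RGC-like clusters exceeded 100 CPM, led by the cluster of RUNX2 and COL12A1 (634 ± 154 CPM over the 4 E16 libraries) and that of MC5R and NPR3 (425 ± 285 CPM). Of the 2053 dorsal and 5793 ventral RGC-like cells, the RUNX2 cluster held 81 and 365 and the MC5R cluster 62 and 155. The cluster led by NPFF (187 cells, INHBB at 299 ± 273 CPM) had under 20 cells on a side and was not compared. CHRDL1 could be compared by the same minimum in only 5 RGC-like clusters, and was higher ventrally in each. The cluster led by IKZF1 and NTN4L held 6 dorsal and 76 ventral UMIs of CHRDL1, at 120 and 169 CPM. The part of the mix of RGC-like clusters in the INHBB and CHRDL1 differences was not tested. BMP7 reached 20 CPM in 26 of 37 RGC-like clusters, beside 25 for INHBB, and 100 CPM in 1, beside 10 for INHBB. Of the 26 clusters with the same minimum of cells and UMIs, BMP7 was higher dorsally in 17 and ventrally in 9.

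**Figure D5:**
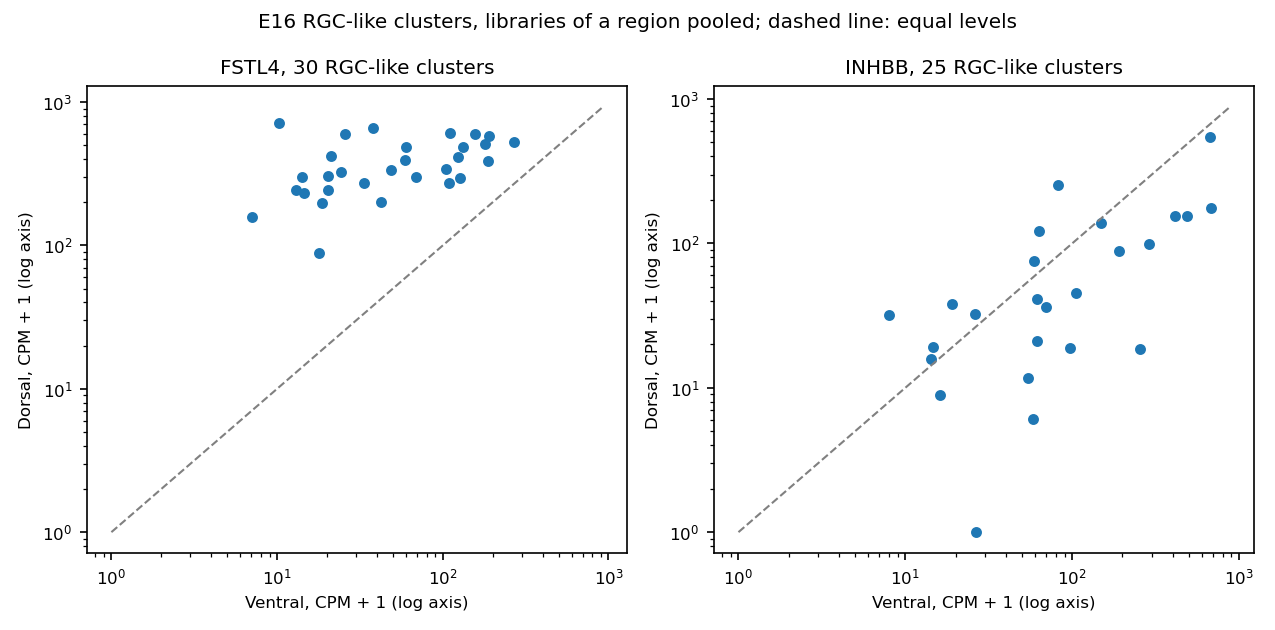
Pooled dorsal level (vertical) against pooled ventral level (horizontal) of FSTL4 in 30 and INHBB in 25 E16 RGC-like clusters, as CPM + 1 on log axes; the dashed line marks equal levels. All FSTL4 points lie above the line, and 17 of the INHBB points lie below it.

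The amacrine-like cells that came through the RGC enrichment (204 dorsal and 696 ventral) gave the same 2 directions with less support. Of 4 genes tested FSTL4 was higher dorsally and CHRDL1 lower, where 4.26% of all genes tested were called (2.48% higher and 1.77% lower). FSTL4 was at 441 and 293 CPM dorsally and 131 and 135 CPM ventrally (log2 1.36 ± 0.19, adjusted p = 6.64e-06). CHRDL1 was at 0 and 24.8 CPM dorsally (5 UMIs) and 110 and 102 CPM ventrally (217 UMIs), a log2 difference of −2.73 ± 0.48 (adjusted p = 3.00e-04). Both calls were lost without either dorsal replicate, which left 1 dorsal library assumed to vary like the others. FSTL4 was then at a log2 difference of 1.13 and 1.67 (adjusted p = 0.158 and 0.0771) without replicate 1 and 2. CHRDL1 was at −2.10 without replicate 1 (adjusted p = 0.252), and without replicate 2 the lone library had 0 UMIs (adjusted p = 0.164). The calls were also lost in cells with no HINTW UMI, at 1.70 for FSTL4 (adjusted p = 0.0508) and −1.38 for CHRDL1 (adjusted p = 0.424). After thinning to 1500 UMIs they were at 1.24 (adjusted p = 0.0543) and −3.64 (adjusted p = 0.0703). SMOC1 had 0 UMIs dorsally and 37 ventrally, at least 1.91-fold lower dorsally (floor of 3 counts over the group), and was not tested. The amacrine-like cluster led by EOMES and NPNT (121 cells) was found in only 3 of the E16 libraries. It held 91 of the E16 UMIs of CHRDL1 and 26 of those of SMOC1. In the amacrine-like cluster led by CRHBP and C1QL2, CHRDL1 was at 25.8 CPM dorsally (3 UMIs) and 146 CPM ventrally (72 UMIs). The part of the mix of amacrine-like clusters in the CHRDL1 and SMOC1 differences was not tested. Summed amacrine markers were 7323 to 7402 CPM dorsally and 5457 to 5470 CPM ventrally, and RGC markers 1093 to 1607 and 1114 to 1156 CPM. Their part was not tested.

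The dorsal-ventral difference was compared between the 2 classes in 1 model. Of 7 genes tested FSTL4 alone passed (1.85% of all genes called, 0.918% higher and 0.928% lower): its difference was smaller in amacrine-like than in RGC-like cells by −1.13 ± 0.17 on the log2 scale (adjusted p = 1.33e-07). In cells with no HINTW UMI the value was −0.81 and did not pass (adjusted p = 0.44). CHRDL1 did not pass (−0.86 ± 0.84, adjusted p = 0.799).

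Other pathway genes were taken from lists of 84 ligands, receptors, modulators, SMAD-type mediators and targets, of which 69 besides the 10 were in the tables. In Müller glia-like cells 7 of 35 tested rose and 12 fell, where 17.2% of all genes tested rose and 11.3% fell, with a median log2 difference of −0.57 beside 0.01 over all genes. Of 9 target genes tested 1 rose and 4 fell, with a median log2 difference of −0.99. The 1 that rose was ID4, from 118 ± 15.1 to 1801 ± 25.6 CPM (log2 4.14 ± 0.06). ID2, of the same family of BMP-responsive inhibitors of bHLH factors, fell from 234 ± 40.1 to 15 ± 3.7 CPM (log2 −3.73 ± 0.12). The type II activin receptor gene ACVR2B fell from 58.5 ± 10.7 to 6.14 ± 1.4 CPM and the BMP mediator SMAD9 from 26.7 ± 8.4 to 2.51 ± 0.52 CPM. ACVR2B was also lower at E18 in RGC-like (log2 −2.22), amacrine-like (−1.37) and horizontal cell-like cells (−2.28), and higher in photoreceptor-like cells (2.15). ID1, a direct BMP target, rose in RGC-like cells from 20.6 ± 3.7 to 99.2 ± 42.7 CPM and in amacrine-like cells from 41.8 ± 1.7 to 146 ± 15.9 CPM.

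Over the remaining classes 7 of 34 of these genes rose and 4 fell in RGC-like, 8 and 3 of 43 in amacrine-like, 4 and 5 of 29 in bipolar-like, 1 and 7 of 22 in horizontal cell-like, and 3 and 2 of 21 in photoreceptor-like cells. Over all genes tested 18.6%, 19.2%, 21.9%, 21.7% and 27.2% were called in these classes, in the same order. In horizontal cell-like cells TBX2, a T-box factor that BMPs induce in the dorsal eye, fell from 107 ± 17.5 to 17.2 ± 4.3 CPM. Between dorsal and ventral RGC-like cells 7 of 41 were higher dorsally and 2 lower, beside 7.7% and 7.65% of all genes tested. TBX2 was at 159 ± 13.8 CPM dorsally and 73.1 ± 1.5 CPM ventrally (log2 1.13 ± 0.08, adjusted p = 6.27e-13), and SMAD1 at 82.9 ± 2.1 and 67.1 ± 1.3 CPM. In amacrine-like cells 2 of 22 were higher dorsally, SMURF2 and TBX2, and 0 lower, beside 2.48% and 1.77% of all genes tested.

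The genes whose levels ran most like each of the 10 were found by Pearson's r of log2(CPM + 10) over 153 clusters of all stages and sizes, as a description, since clusters share libraries. INHBA had the closest matches, ISYNA1 (r = 0.948), BOC (0.925) and VEGFRKDRL (0.925). BMPR1B ran with NR2E1 (0.857), FOXI3 (0.836) and SOX21 (0.823), and BAMBI with NOTCH1 (0.709). CHRDL1 ran most with METRN (0.693), INHBB with KITLG (0.65) and SMOC1 with COL2A1 (0.631). The best matches of BMP7 (PROSER2, 0.579), FSTL4 (PRR5, 0.552), BMP2 (MYO1E, 0.551) and BMP4 (TACR3, 0.535) were looser. Among the 10 themselves genes high in Müller glia-like cells ran together most, BMPR1B with INHBA at 0.726 and CHRDL1 with INHBA at 0.588.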

How the data were processed

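The deposited values were UMI counts per gene and cell barcode, in 1 table per stage, made by the authors with Cell Ranger 2.1.0 on the GRCg6a chicken genome, per the submitters' processing notes. The counting settings are not given in the sources used here. Library totals ran from 1737033 to 27655687 UMIs, and their number limits the precision. Intervals and floors cover counting error only.

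From these counts, each stage was clustered separately without the 84 pathway genes and HINTW (2000 variable genes, 40 principal components, 20 neighbours, Leiden resolution 1, leidenalg 0.10.2). Doublets were removed by simulated neighbours at 0.8% per 1000 barcodes. A cluster was named where at least 3 markers of a class passed 50 CPM and 2-fold; these naming details were set with the counts in view. Levels, ranks and numbers of clusters cover clusters of at least 50 cells, except where all 153 are named. CPM was computed here from all UMIs of a class in a library.

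Counts summed per library and class were tested with edgeR 4.0.16 (quasi-likelihood, filterByExpr, TMM) in R 4.3.3, with Benjamini-Hochberg adjustment over all genes tested; DESeq2 1.42.0 was an alternative. Counts with 2-group changes of known size, all over 2-fold, were simulated with the same spread for every gene. Of the changed genes 173 of 177 were called in the photoreceptor-like stage design and 198 of 199 in the amacrine-like one. The dorsal-ventral RGC-like design called 168 of 197. Unchanged genes called were 6, 1 and 10, in the same order. These figures do not give the power of the tests for smaller changes or for genes of other spread.

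All 10 genes were described in every comparison. Other pathway genes were named as the up to 3 largest called rises and falls with at least 20 CPM and no overlap between groups. The genes, lists and tests were chosen with earlier results of these data known. Comparisons with single E18 clusters, and without the RGC-like cluster that had as many amacrine markers, were added after seeing the data. No sequences are shown. Some items are not reported here.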

Additional observations from a re-analysis of the deposited data

Results flagged for a closer look

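Among 47 groups of 4 libraries screened, 5 held 1 library far from the other 3, and chance gives about 1 in 20 groups. BMP7 in E12 Müller glia-like cells was at 41.5 CPM in replicate 1. BAMBI in E18 horizontal cell-like cells was at 15.4 CPM in replicate 1. CHRDL1 was at 39.7 CPM in replicate 2 of E12 photoreceptor-like cells, the library whose removal ended that call, and at 30.9 CPM in replicate 4 of E12 amacrine-like cells. FSTL4 in E18 bipolar-like cells was at 67.0 CPM in replicate 2.

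The difference between E12 and E18 varied between classes for 8 genes by the test of that difference in edgeR, as it did for 79% of all genes tested. The adjusted p was 3.61e-86 for INHBB, 1.69e-38 for FSTL4, 9.24e-33 for BMP2, 6.64e-26 for BAMBI, 4.89e-24 for BMP7, 2.06e-23 for CHRDL1, 6.92e-07 for SMOC1 and 0.0205 for BMPR1B. The dorsal-ventral difference of FSTL4 varied between RGC-like and amacrine-like cells by −1.13 on the log2 scale.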

How the results depend on the processing

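Of 831 single-gene values under an alternative, 752 kept their direction and side of the threshold, 27 lost a call, 21 gained one and 31 changed direction. The count of genes called in photoreceptor-like cells went from 5 to 3 with library totals or no filter, 1 with at least 1000 genes per barcode and 0 against the most similar E18 cluster. In the last 2 settings 2957 and 2273 genes could be tested, beside 7585 in the main run, and 943 and 304 were called. With at least 1000 genes the uncounted ones did not pass the filter on low counts. Against that cluster only INHBB and BMP7 passed it. In bipolar-like cells 2 became 4 with doublets kept and 1 with at least 1000 genes, in horizontal cell-like cells 5 with no filter, and in amacrine-like cells 1 became 2 with library totals, no filter, own markers or finer clusters and 3 with at least 1000 genes. The drop to 1 in bipolar-like cells came from INHBB, which did not pass the filter there. The dorsal-ventral count in amacrine-like cells went from 2 to 0, and the count for its difference between classes from 1 to 0, in cells with no HINTW UMI; the former was also 0 after thinning. Steady counts hid other changes: at least 1000 genes ended the calls of INHBA (0.88) and BMPR1B (−0.70) in Müller glia-like cells, and own markers ended BMPR1B there (−0.92) and CHRDL1 in horizontal cell-like cells (0.56). In bipolar-like cells own markers ended INHBB (−0.94) and FSTL4 (0.37) and added BAMBI (−1.82) and CHRDL1 (−1.95). The causes were not tested.

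Leaving out 1 library gave counts of 4 to 5 in photoreceptor-like, 2 to 4 in bipolar-like (4 without E12 replicate 2), 2 to 3 in horizontal cell-like, 1 to 2 in amacrine-like, 1 in RGC-like and 8 in Müller glia-like cells, 2 to 3 dorsal-ventral in RGC-like and 0 to 2 in amacrine-like cells. DESeq2 changed no call. Levels were per total UMIs throughout, so no separate level with library totals was computed. The labels do not say whether equal replicate numbers pair libraries. Correlations of same-numbered libraries were −0.0369 to 0.039. At E16 the same-numbered library was the closer one (0.039 in RGC-like and 0.027 in amacrine-like cells). With 2 libraries per side these values cannot settle the pairing. With the replicate number as a block the counts were 5, 2, 2, 1, 1 and 8 in photoreceptor-like, bipolar-like, horizontal cell-like, amacrine-like, RGC-like and Müller glia-like cells (19 in all), and 3 and 2 dorsal-ventral, with no call lost or gained.

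Changed directions, as log2 values, were 0.60 for BMP7 in photoreceptor-like cells (most similar cluster). In horizontal cell-like cells they were −0.59 (own markers) and −0.48 (LHX1 cluster) for BAMBI and 0.094 for FSTL4 (LHX1 cluster). In amacrine-like cells they were 0.28 for SMOC1 (own markers), 0.027 and 0.093 for FSTL4 (library totals, own markers) and 0.033 for BMP7 (library totals). In RGC-like cells CHRDL1 was −0.050 with doublets kept and −0.058 to 0.27 over left-out libraries, and SMOC1 −0.28 to 0.36 over them. FSTL4 there was −0.094 (no filter), −0.00015 (replicate block), −0.025 (at least 1000 genes), −0.011 (own markers), −0.078 (no HINTW) and −0.067 to 0.053 over left-out libraries. CHRDL1 in Müller glia-like cells was −0.0011 against the PSCA cluster. Dorsal-ventral values in RGC-like cells were −0.17 (at least 3 HINTW UMIs) and −0.15 to 0.26 (left-out libraries) for SMOC1, and −0.017 (no filter), −0.080 (no HINTW), −0.0018 (without the doubtful cluster) and −0.025 to 0.040 (left-out libraries) for BMP7. The log2 change of INHBB, dorsal against ventral, E16 amacrine-like, was −7.335 to 0.083 over left-out libraries, the first with a lone dorsal library at 0 UMIs, assumed to vary like the others.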

Other observations

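An unnamed E18 cluster of 57 cells, led by TF and COL9A1, had the highest SMOC1 level of that stage among clusters of at least 50 cells, 115 CPM (10 UMIs). At E16 the RGC-like cluster of at least 50 cells with the highest CHRDL1 level (65 cells, led by GCG and FEZF1, 261 CPM) passed as many amacrine as RGC markers. Without it the dorsal-ventral log2 difference of CHRDL1 in RGC-like cells was −2.19 ± 0.41 (edgeR, adjusted p = 8.73e-05).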
